A study of Mus musculus with 16 samples.

Results

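The pyruvate dehydrogenase gene group described here has 10 members, chosen by name. They are 4 genes of the complex (Pdha1, Pdhb, Dlat and Dld), 4 genes of its kinases (Pdk1, Pdk2, Pdk3 and Pdk4) and 2 genes of its phosphatases (Pdp1 and Pdp2). All 10 were listed in both deposited tables, which hold 17539 genes for quadriceps muscle and 18000 for brown adipose tissue. The mice were C57BL/6 males aged 10 weeks, kept at room temperature. Those homozygous for the Ppargc1a allele that the labels call uORF-TAA were compared with Wild-type littermates, giving 16 libraries, 4 for each genotype and tissue. Ppargc1a encodes PGC-1alpha, a transcriptional coactivator, and a uORF is a short open reading frame upstream of the main one. The labels name no tissue-specific driver for the allele, nor do they state if the same mice gave both tissues.

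Pyruvate dehydrogenase sits in the mitochondrial matrix and turns pyruvate into acetyl-CoA, which commits glucose carbon to oxidation or to fat synthesis. Its activity is set by reversible phosphorylation. The kinases phosphorylate the alpha subunit and switch the complex off, and the phosphatases remove the phosphate and switch it on. Pdk4 is known for its rise in muscle during fasting and for being a target of PGC-1alpha with the estrogen-related receptors, of PPARs, of FOXO1 and of the glucocorticoid receptor. In brown fat the complex feeds acetyl-CoA to oxidation during heat production and to lipogenesis.

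The tables give, for each gene, a mean normalized count over the 8 libraries of a tissue and the authors' comparison of genotypes; values of single libraries were not analysed here. Estimated library depth lay between 11.4 and 31.8 M counts (M, mega) in quadriceps, and between 11.0 and 17.8 M in brown fat. The tissues carried their own defining markers. Ucp1, the uncoupling protein of brown adipocytes, had a level of 0.523 TPM in quadriceps and 4819 TPM in brown fat. The 10 markers of striated muscle fibres summed to 199190 TPM in quadriceps and to 9126 TPM in brown fat, which is 4.58% of the quadriceps sum. Among them Myh7 and Tnnt1 went the other way, and the rest were lower in brown fat. Myh7 stood at 25.4 TPM in quadriceps and 57.2 TPM in brown fat, and Tnnt1 at 55.3 and 173 TPM. Levels are the deposited mean counts divided by transcript length and scaled to the same total in each table, a unit written here as TPM. In bulk tissue, fewer cells of a type and less RNA per cell cannot be told apart.

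The kinases Pdk4 and Pdk2 supplied almost all kinase message in either tissue, and the sequence ahead of their start sites is shown for that reason. Both stretches are the 250 bases before the outermost RefSeq start on build GRCm38.p6, read 5′ to 3′ on the minus strand, and capitals mark the CCAAT box, here in its reverse form. That of Pdk4 lies at chr6:5496279-5496528 and that of Pdk2 at chr11:95041372-95041621.
Pdk4: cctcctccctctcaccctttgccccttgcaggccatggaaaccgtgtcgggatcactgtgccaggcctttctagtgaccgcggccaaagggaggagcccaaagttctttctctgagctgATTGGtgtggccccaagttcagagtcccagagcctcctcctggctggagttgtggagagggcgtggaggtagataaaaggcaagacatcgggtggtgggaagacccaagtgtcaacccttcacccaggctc
Pdk2: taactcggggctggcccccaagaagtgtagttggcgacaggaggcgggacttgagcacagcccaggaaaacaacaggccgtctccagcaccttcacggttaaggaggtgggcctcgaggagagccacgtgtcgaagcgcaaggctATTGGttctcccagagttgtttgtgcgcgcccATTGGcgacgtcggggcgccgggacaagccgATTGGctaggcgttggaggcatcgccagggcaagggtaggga

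The Pdk4 stretch held 1 CCAAT box, beginning 131 bases before the start, and the Pdk2 stretch held 3, beginning 105, 73 and 42 bases before it. RefSeq start sites were found for 9 of the 10 members, 11 in all. A member was counted below if any of its starts matched, while the shares of all promoters are per start. Members with more than 1 start thus had more chances to match. On either strand CCAAT was present in the 250 bases of 6 of these 9 genes (Pdhb, Dld, Pdk2, Pdk3, Pdk4 and Pdp2), and in 33.8% of all 32851 promoters. ACGTG, the core of E-boxes and of hypoxia response elements, was present in 4 members (Pdhb, Pdk2, Pdk3 and Pdp2), against 16.6% of all promoters. AGGTCA, a nuclear receptor half-site, and GTAAACA, a FOXO site, were found in 0 of the 9 members, and in 14.0% and 3.17% of all promoters. None of the 4 motifs contains another, and a match describes letters only, since binding was not measured.

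Abundance differed widely among the members. Pdk4 was the most abundant of the 10 in either tissue. Its mean normalized count in the deposited tables was 227957 in quadriceps, which is 1.08% of all counts, and 51943 in brown fat, which is 0.405% of all counts. Per transcript length Pdk4 stood at 8359 TPM in quadriceps, the 15th highest of 17353 genes, and at 2471 TPM in brown fat, the 43rd highest of 17801.

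Pdk2, the broadly expressed kinase, came next among the kinases. Its level was 422 TPM in quadriceps and 719 TPM in brown fat. Pdk1, a kinase known as a target of the hypoxia-inducible factor HIF1, was lower, at 35.4 TPM in quadriceps and 41.0 TPM in brown fat. Pdk3, an X-linked kinase gene best known from testis and brain, was near the floor of detection, with deposited mean normalized counts of 11.6 in quadriceps and 26.9 in brown fat. Its level was 0.698 TPM in quadriceps and 2.11 TPM in brown fat. The order Pdk4, Pdk2, Pdk1, Pdk3 was the same in both tissues.

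**Figure D1:**
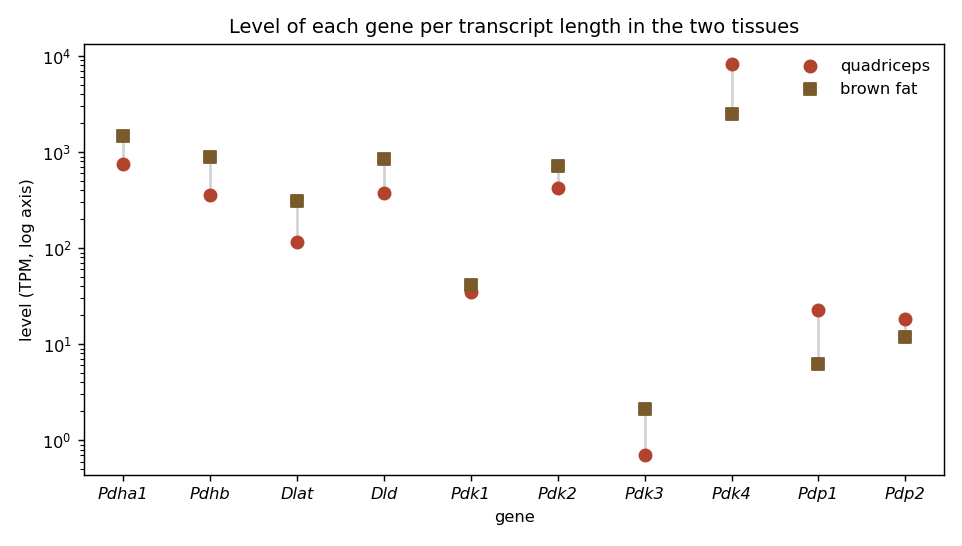
Level in TPM (mean count per transcript length, log axis) of each gene in quadriceps (circles) and brown fat (squares), pooled over genotypes, with a grey line joining the tissues. Pdk4 is the highest gene in either tissue, the 4 complex genes are higher in brown fat, and Pdk3 is the lowest.

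Pdk4 held most of the kinase message, and a larger share of it in quadriceps. Per transcript length it made up 94.8% of the summed level of the 4 kinases in quadriceps and 76.4% in brown fat. Pdk2 made up 4.78% in quadriceps and 22.2% in brown fat. Pdk1 made up 0.401% in quadriceps and 1.27% in brown fat. Pdk4 was 19.8 times the level of Pdk2 in quadriceps and 3.44 times in brown fat. These shares have no replicate error, since each tissue gives a single mean per gene.

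The complex genes were abundant too. Pdha1, the X-linked gene of the catalytic alpha subunit that the kinases phosphorylate, stood at 753 TPM in quadriceps and 1477 TPM in brown fat. Pdhb, its beta partner, stood at 358 and 888 TPM in quadriceps and brown fat. Dld, the lipoamide dehydrogenase shared with the sister 2-oxoacid complexes and the glycine cleavage system, stood at 371 TPM in quadriceps and 844 TPM in brown fat. Dlat, the acetyltransferase of the core, was the lowest of the 4 at 115 TPM in quadriceps and 311 TPM in brown fat. The make-up of the complex was similar in the tissues, with Pdha1 at 47.2% and 41.9% of the 4-gene sum in quadriceps and brown fat, and Dlat at 7.19% and 8.84%.

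The phosphatase genes were far scarcer. Pdp1, the calcium-stimulated phosphatase, stood at 22.9 TPM in quadriceps and 6.18 TPM in brown fat. Pdp2, the insulin-responsive phosphatase, stood at 18.5 TPM in quadriceps and 11.8 TPM in brown fat. Pdp2 made up 65.6% of the pair in brown fat. In quadriceps Pdp1 made up 55.4% per transcript length, but that order turned over without division by length (Pdp1 47.8%) and with coding length (47.5%). The summed kinase level was 213 times the summed phosphatase level in quadriceps and 180 times in brown fat. With Pdk4 left out, the ratio was 11.1 in quadriceps and 42.5 in brown fat. These are ratios of message and not of protein or activity.

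**Figure D2:**
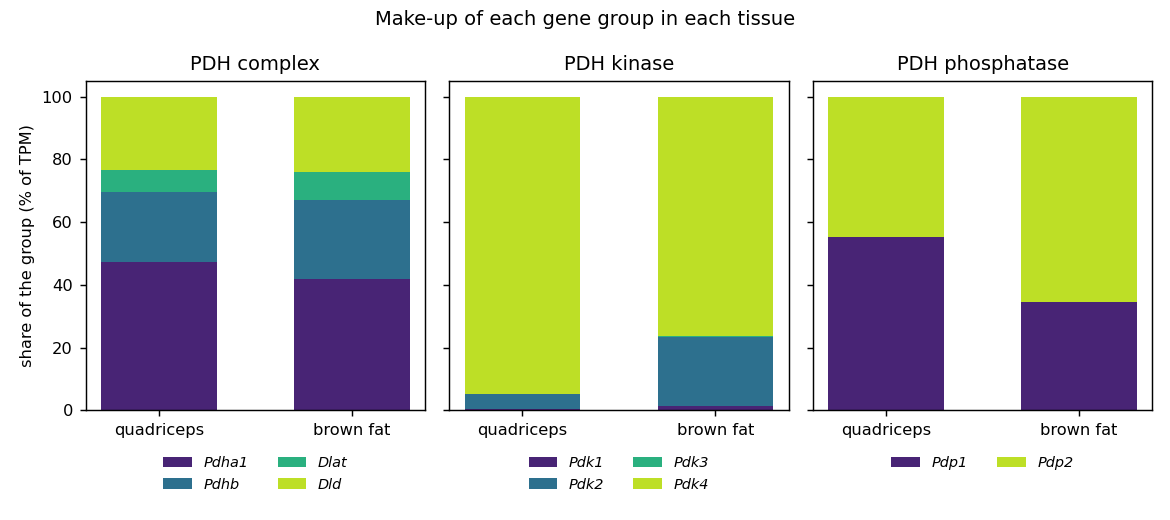
Share of each gene in its group (% of the summed TPM) in quadriceps and brown fat, for the complex, the kinases and the phosphatases. Pdk4 fills 94.8% of the kinase bar in quadriceps and 76.4% in brown fat, where Pdk2 holds 22.2%.

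Set across tissues, the members moved in different directions. The tables were normalized separately, so these ratios are descriptions without a test. Pdk4 was 3.38 times as high in quadriceps as in brown fat, and Pdp1 was 3.71 times as high. Pdp2 was 1.57 times as high in quadriceps. All 4 complex genes were lower in quadriceps under each scaling tried, with quadriceps to brown fat ratios of 0.510 for Pdha1, 0.403 for Pdhb, 0.369 for Dlat and 0.439 for Dld. Pdk2 had a ratio of 0.586 and Pdk3 of 0.332. Pdk1 had a ratio of 0.863, which turned to 1.28 when the tables were scaled by the median ratio of genes. For Pdk4 the ratio was 5.02 under that scaling. In brown fat Pdk4 was at 29.6% of its quadriceps level and the summed muscle fibre markers at 4.58%. Of those markers, Myh7 and Tnnt1 were higher in brown fat. The part of muscle RNA in the brown fat levels was not tested.

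The design asks whether the message of these genes differed between genotypes. It did not pass the test for any of the 10 members in either tissue. The authors' deposited table for quadriceps has 0 members with an adjusted p under 0.05, against 0.00% of all 17521 genes tested, and its brown fat counterpart has 0, against 0.0863% of the 9272 genes with an adjusted p. At an unadjusted p under 0.05, 0 of 10 members were called in quadriceps, against 2.00% of genes, and 0 of 10 in brown fat, against 2.07% of genes. Neither table names its numerator. Signs are read as uORF-TAA over wild type, assuming that the genotype named first in each table is the numerator, and if that fails for a tissue every sign there turns. Ppargc1a itself was at 0.06 ± 0.13 (SE, log2 fold change) in quadriceps and 0.0016 ± 0.11 (SE) in brown fat in the authors' deposited table.

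Pdk4 was at -0.07 ± 0.12 (log2 fold change, SE, 4 libraries per genotype) in quadriceps in the authors' deposited table (deposited DESeq2 test, adjusted p = 1.00). As a fold this is 0.956, with a 95% interval from 0.815 to 1.12. For brown fat, -0.14 ± 0.11 (SE) was listed for Pdk4 in the authors' deposited table, the deposited DESeq2 p being 0.223 unadjusted and 1.00 adjusted. The fold was 0.909, with a 95% interval from 0.779 to 1.06. This was the largest kinase value in either tissue, and its interval holds 0 on the log2 scale.

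The other kinases lay closer to 0. In the authors' deposited table Pdk2 had log2 fold changes of -0.06 ± 0.12 (SE) in quadriceps and -0.0034 ± 0.10 (SE) in brown fat. Pdk1 had 0.03 ± 0.12 (SE) in quadriceps and 0.02 ± 0.12 (SE) in brown fat in the authors' deposited table. Pdk3 had 0.05 ± 0.11 (SE) in quadriceps and 0.07 ± 0.13 (SE) in brown fat in the authors' deposited table, which gives it no adjusted p in brown fat. Over the 4 kinases, the 95% intervals spanned -0.30 to 0.28 in quadriceps and -0.36 to 0.32 in brown fat on the log2 scale.

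**Figure D3:**
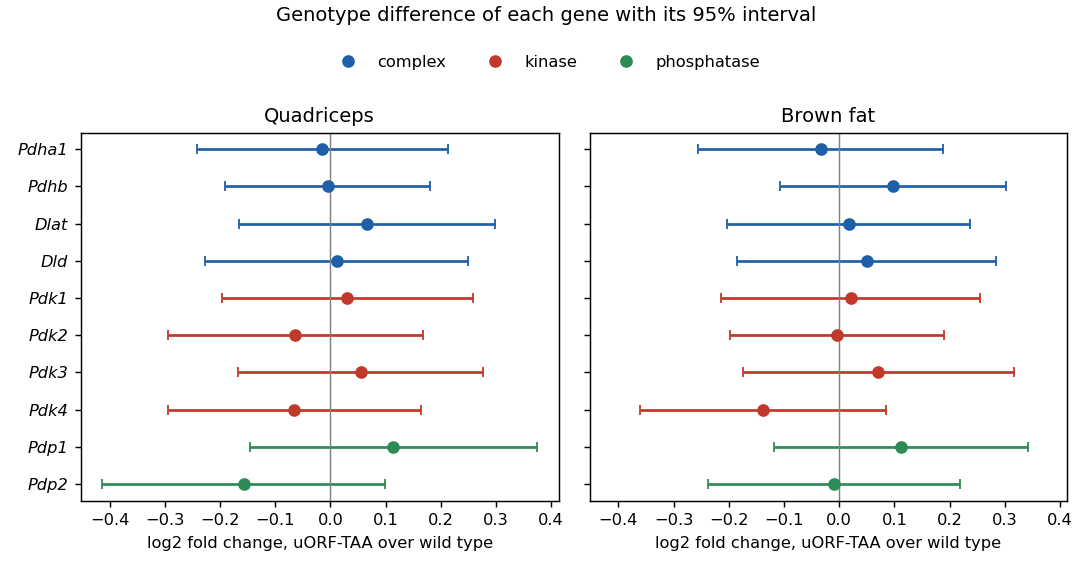
Log2 fold change of uORF-TAA over wild type for each gene (points) with its 95% interval from the deposited standard error (bars), in quadriceps (left) and brown fat (right). All 20 intervals hold 0, and the points lie between -0.16 and 0.11 in quadriceps and between -0.14 and 0.11 in brown fat.

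The complex genes lay around 0. In the authors' deposited table Pdha1 had log2 fold changes of -0.015 ± 0.12 (SE) in quadriceps and -0.03 ± 0.11 (SE) in brown fat. Pdhb had -0.0052 ± 0.10 (SE) in quadriceps and 0.10 ± 0.10 (SE) in brown fat in the authors' deposited table, the highest value of the 4. Dlat had 0.07 ± 0.12 (SE) and Dld 0.011 ± 0.12 (SE) in quadriceps in the authors' deposited table. The brown fat values were 0.017 ± 0.11 (SE) for Dlat and 0.05 ± 0.12 (SE) for Dld in the authors' deposited table. The 4 intervals together spanned -0.24 to 0.30 in quadriceps and -0.26 to 0.30 in brown fat.

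The phosphatase genes had the widest spread in quadriceps. Pdp2 was at -0.16 ± 0.13 (log2 fold change, SE) there in the authors' deposited table, the deposited DESeq2 p being 0.227 unadjusted and 1.00 adjusted. Its fold was 0.897, with a 95% interval from 0.751 to 1.07. In brown fat Pdp2 had -0.0096 ± 0.12 (SE) in the authors' deposited table. Pdp1 had 0.11 ± 0.13 (SE) in quadriceps and 0.11 ± 0.12 (SE) in brown fat in the authors' deposited table, and its fold of 1.08 in quadriceps had an interval from 0.903 to 1.30.

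Read as a set, 5 of 10 members were above 0 in quadriceps, against 51.7% of all genes tested, and 6 of 10 in brown fat, against 51.2%. The median log2 fold change of the members was 0.0030 in quadriceps, beside 0.0024 over all genes tested. In brown fat it was 0.019, beside 0.0015 over all genes tested. The size of the Wald statistic of Pdk4 exceeded that of 49.4% of genes in quadriceps and of 89.0% in brown fat. That of Pdp2 exceeded 87.7% in quadriceps and 8.34% in brown fat. These 2 are picked as the largest of the members, Pdk4 in brown fat and Pdp2 in quadriceps. Their unadjusted p there was only 0.223 and 0.227 (deposited DESeq2 test). The deposited fold changes behave as shrunken estimates, with no standard error above 0.135 in quadriceps or 0.127 in brown fat, so unshrunken folds and intervals may be wider than those printed.

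**Figure D4:**
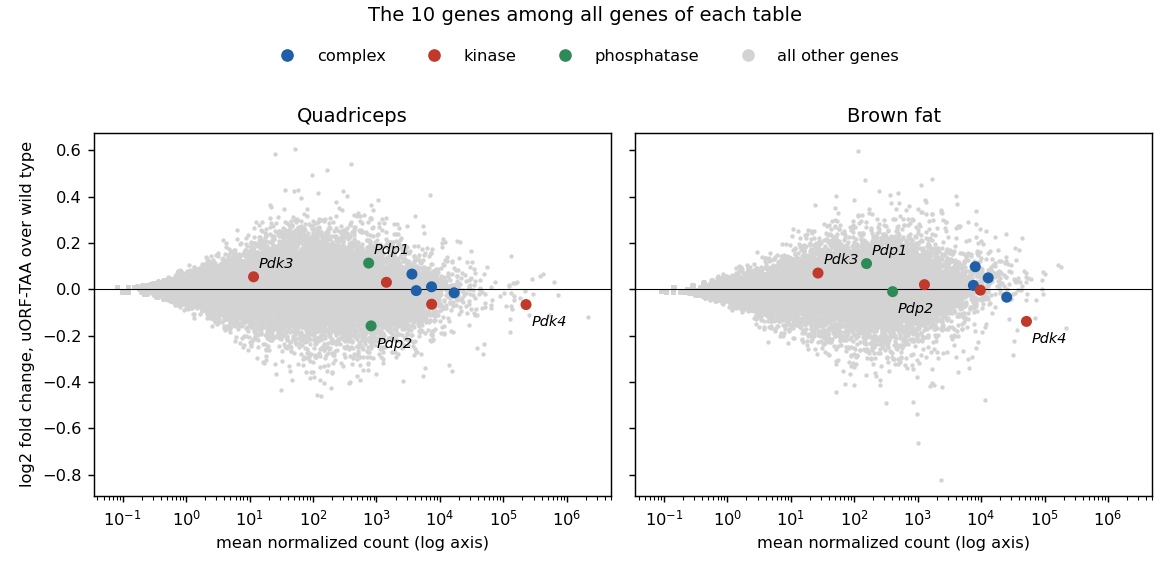
Log2 fold change of uORF-TAA over wild type against the mean normalized count (log axis) for all genes (grey) and the 10 members (coloured by role), in quadriceps (left) and brown fat (right). The members lie inside the cloud of all genes, and Pdk4 lies towards its right edge with mean counts of 227957 in quadriceps and 51943 in brown fat.

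The genotype differences were then compared between the tissues, as the log2 fold change in quadriceps less that in brown fat, with a normal test over 16844 genes. Among the members 0 of 10 passed at an adjusted p of 0.05, against 0.00% of all genes, and 0 of 10 at an unadjusted p under 0.05, against 1.16%. Under the assumed reading Pdp2 had the largest difference of the members, -0.15 ± 0.17 (SE), with a 95% interval from -0.49 to 0.20 and an unadjusted p of 0.398 in that normal test across genes. For Pdhb the difference was -0.10 ± 0.14 (SE) and for Pdk4 0.07 ± 0.16 (SE), with intervals from -0.38 to 0.17 and from -0.25 to 0.39. These intervals allow differences of either sign. Pdp1 had a difference of 0.0022 ± 0.18 (SE). With the brown fat signs taken as deposited, the largest was that of Pdp1, at 0.23, ahead of Pdk4 at -0.20 and Pdp2 at -0.17, and again 0 members passed.

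The wider pathway was described from 6 lists beside the members, and in each of them 0 genes passed an adjusted p of 0.05 in either tissue. The first list holds the remaining parts of the complex and the enzymes that attach or supply its cofactors. Of its 8 genes, 0 had an unadjusted p under 0.05 in quadriceps, against 2.00% of all genes, and 0 in brown fat, against 2.07%. The median log2 fold change of the list was 0.047 in quadriceps and 0.064 in brown fat. Pdpr, the regulatory subunit of the phosphatase, had 0.07 ± 0.09 (SE) in quadriceps and 0.17 ± 0.13 (SE) in brown fat in the authors' deposited table. Its level differed more between tissues than that of any member, at 68.1 TPM in quadriceps and 1.67 TPM in brown fat, a ratio of 40.8. Pdhx, which binds the lipoamide dehydrogenase to the core, is outside the naming rule and was chosen after its values were seen. Its level was 90.1 TPM in quadriceps and 107 TPM in brown fat, and its log2 fold changes were -0.0041 and 0.06 in the authors' deposited table.

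Genes of pyruvate supply and of its other fates gave 0 of 15 with an unadjusted p under 0.05 in quadriceps, against 2.00% of all genes, and 1 of 15 in brown fat, against 2.07%. That gene was Gpt, the alanine aminotransferase that exchanges pyruvate and alanine, at 0.30 ± 0.12 (log2 fold change, SE) in brown fat in the authors' deposited table (unadjusted p = 0.0113, adjusted p = 1.00, deposited DESeq2 test). Mpc2, a subunit of the mitochondrial pyruvate carrier, had 0.12 ± 0.10 (SE) in quadriceps in the authors' deposited table. Ldhb, the heart-type lactate dehydrogenase, had 0.12 ± 0.10 (SE) and Ldha, the muscle type, 0.11 ± 0.10 (SE) in brown fat in the authors' deposited table. In quadriceps 10 of 15 genes were above 0, against 51.7% of all genes tested, with a median of 0.045. In brown fat 13 of 15 were, against 51.2%, with a median of 0.080. In the list of the sister dehydrogenase complexes and their regulators, 0 of 8 genes had an unadjusted p under 0.05 in either tissue. Ppm1k, the phosphatase of the branched-chain complex, came nearest, with 0.22 ± 0.12 (SE) in quadriceps in the authors' deposited table (unadjusted p = 0.0618).

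Among the factors known to act on Pdk4, a few genes passed the unadjusted threshold. In quadriceps 2 of 14 were higher, against 0.942% of all genes, and 1 was lower, against 1.06%, at an unadjusted p below 0.05. Nr4a1, an orphan nuclear receptor, had 0.32 ± 0.13 (log2 fold change, SE), and Ppargc1b, the relative of Ppargc1a, had 0.28 ± 0.13 (SE) in the authors' deposited table. Foxo1 had -0.27 ± 0.13 (SE) in quadriceps in the authors' deposited table. In brown fat 1 of 13 was higher, against 0.918% of all genes, and 1 was lower, against 1.15%, at that threshold. Foxo1, which binds the Pdk4 gene in fasting, had -0.41 ± 0.12 (SE, adjusted p = 0.291) there in the authors' deposited table. Ppara, the fatty acid sensing receptor, had 0.41 ± 0.12 (SE, adjusted p = 0.321) in brown fat in the authors' deposited table. Pdk4 itself was at -0.14 ± 0.11 (SE) in brown fat, with an unadjusted p of 0.223 (deposited DESeq2 test). Whether the values of these factors bear on that of Pdk4 was not tested.

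Fasting and PPAR responsive genes of fuel switching gave 1 of 17 lower in quadriceps, against 1.06% of all genes, and 1 of 17 higher in brown fat, against 0.918%, at the same threshold. Txnip, an inhibitor of glucose uptake, was at -0.25 ± 0.12 (log2 fold change, SE) in quadriceps in the authors' deposited table. Ucp3, a mitochondrial carrier, had 0.33 ± 0.08 (SE, adjusted p = 0.0744) in brown fat in the authors' deposited table. The HIF1 responsive genes, which share a regulator with Pdk1, gave 1 of 12 higher and 1 lower in quadriceps, against 0.942% and 1.06% of all genes, and 0 of 12 in brown fat, against 2.07% called either way. Vegfa, a vessel growth factor, had 0.28 ± 0.12 (SE) and Ndrg1, a stress-responsive gene, had -0.32 ± 0.11 (SE) in quadriceps in the authors' deposited table. Medians over these 3 lists lay between -0.020 and 0.035 in the tissues.

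**Figure D5:**
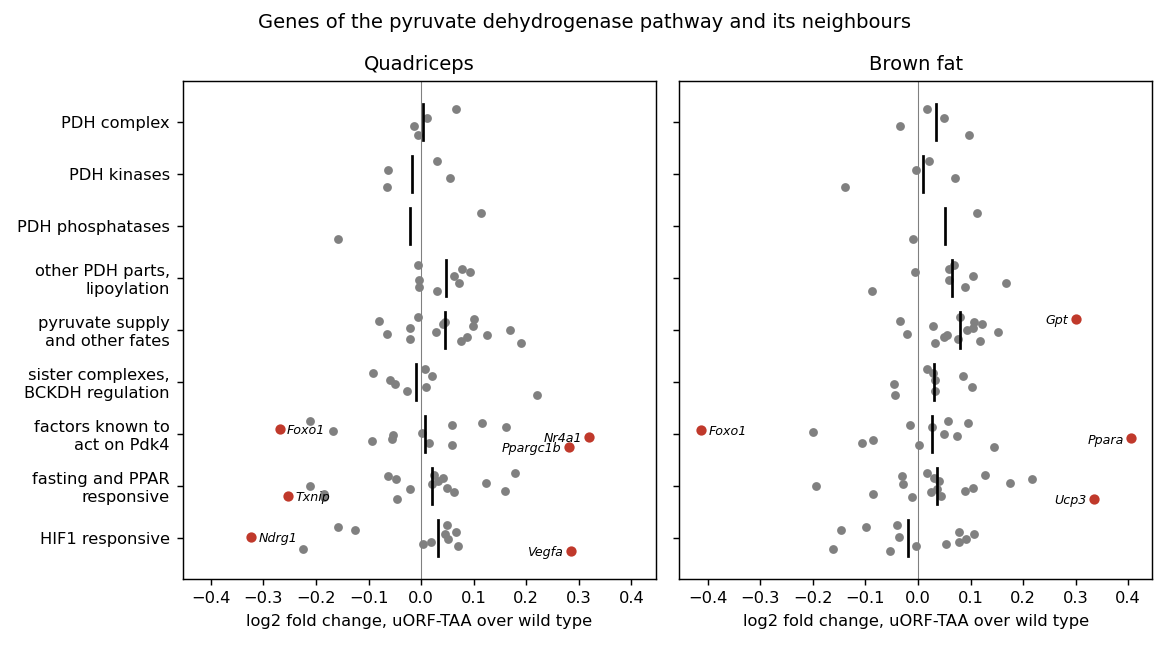
Log2 fold change of uORF-TAA over wild type for the genes of the 3 member groups and 6 pathway lists (points; black lines are list medians), in quadriceps (left) and brown fat (right). Red named points had an unadjusted p under 0.05 and none of them an adjusted p under 0.05; no member of the pyruvate dehydrogenase group is among them.

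Cell type markers were set beside these values. Of the 10 muscle fibre markers, 0 had an unadjusted p under 0.05 in either tissue, and their median log2 fold change was 0.018 in quadriceps and -0.0072 in brown fat. Of the 6 brown adipocyte markers, 2 were higher in brown fat at that threshold, against 0.918% of all genes, with a median of 0.060. These were Ppara, given above, and Dio2, and the 4 others lay between 0.032 and 0.077 on the log2 scale. Mural cell markers in quadriceps had 3 of 5 lower, against 1.06% of all genes. The 2 others were above 0, against 51.7% of all genes tested. The 5 markers had a median of -0.29 and a summed level of 112 TPM. In brown fat 0 of these 5 were called, with 4 above 0 (against 51.2% of all genes tested), a median of 0.13 and a summed level of 188 TPM. Nerve glia markers had all 5 below 0 in either tissue, while 51.7% of all genes tested in quadriceps and 51.2% in brown fat were above 0. Of these markers 1 was called lower in quadriceps and 1 in brown fat (against 1.15% of all genes there), with medians of -0.20 and -0.14. Alas2, the only blood marker measured, had a log2 fold change of 0.020 in quadriceps and 0.34 in brown fat, where its unadjusted p was 0.00840 in the authors' deposited table. In the general adipocyte, endothelial and macrophage lists 0 markers were called, against 2.00% of all genes in quadriceps and 2.07% in brown fat. Of the 5 macrophage markers 4 were measured, and lists this short can miss a difference. Whether the make-up of the tissues contributed to the values of the members was not tested.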

How the data were processed

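Stranded mRNA libraries were sequenced from single ends, per the labels' protocols. The submitters' processing notes name STAR 2.5.1b, DESeq2 1.10.1 and the build mm9, without giving their roles; no source used here gives the read counter or annotation, so genes with near-identical copies may be counted differently elsewhere. Per the file headers, each deposited table gives a mean normalized count per gene, a signal made by the authors over the libraries of a tissue. The deposited log2 fold change, its standard error, the Wald score (their quotient), the p-value and the adjusted p-value are the authors' own, and recomputed Wald and p-values matched them to rounding. Signs of the brown fat table were reversed, so that uORF-TAA stands over wild type in both. Called genes had a deposited adjusted p under 0.05, which brown fat gives for 9272 of 17973 tested genes, with Pdk3 not among them.

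Levels used the length of the APPRIS principal transcript of GENCODE (GRCm38), found for 98.9% of genes in each tissue. Depth was estimated from genes with only 1 read in a tissue, since their mean gives the size factor of that library. Intervals are at 95% from the standard error. The tissue difference was divided by its standard error (both squared errors summed), and the two-sided normal p was Benjamini-Hochberg adjusted, treating the tissues as independent. The procedures were run on simulated statistics with large shifts added, which checks the code and not the power for differences as small as those of the members. Python 3.11.15, pandas 2.3.3 and scipy 1.17.1 were used. Promoter sequences are from RefSeq.

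Members and lists were chosen with earlier results of these data known. Named genes are the members, Ppargc1a and, per list and tissue, genes among the 4 of smallest p. Pdhx is outside that rule, as are the markers Ucp1, Myh7, Tnnt1, Dio2 and Alas2. Dio2 was named for its unadjusted p, and Myh7 and Tnnt1 for their levels. A gene that the rule picks is not reported here. The series design gives 4 mice per genotype. Alternatives were other sets of genes for adjustment, other thresholds, centring, opposite readings of the tables, other lengths and another scaling between tables.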

Additional observations from a re-analysis of the deposited data

How the results depend on the processing

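The count of members past the threshold stayed at 0 in each tissue when p was adjusted over every gene, over those with mean counts from 10 or from 50, and at thresholds of 0.01 and 0.1. Over all genes, the threshold of 0.1 called 2 in quadriceps, and 0.01 called 4 in brown fat. Read the opposite way, the quadriceps table gives Pdha1 0.015, Pdhb 0.0052, Dlat -0.066, Dld -0.011, Pdk1 -0.031, Pdk2 0.064, Pdk3 -0.054, Pdk4 0.065, Pdp1 -0.11 and Pdp2 0.16 (log2 fold changes). The brown fat table then gives Pdha1 0.034, Pdhb -0.10, Dlat -0.017, Dld -0.050, Pdk1 -0.020, Pdk2 0.0034, Pdk3 -0.071, Pdk4 0.14, Pdp1 -0.11 and Pdp2 0.0096. With that brown fat reading alone, 6 genes differed between tissues, none of them a member, and the difference turned to -0.048 for Pdha1, 0.093 for Pdhb, 0.061 for Dld, 0.13 for Pdk3 and -0.20 for Pdk4, while that of Pdp1 kept its sign and grew to 0.23, the largest of the members. For the genotype fold changes of the members and of genes picked by p within a list, 300 settings other than opposite readings were run. In 1 of them a call or direction changed, Ucp3 passing at 0.1 in brown fat. Ppargc1a and genes named only as markers were not among these settings. In brown fat the median used for centring, 0.0064, lies above the 0.0016 of Ppargc1a, so centring would turn its sign. The marker Dio2, with a deposited DESeq2 adjusted p of 0.099 there, would pass at 0.1. A difference of Wald statistics turned Pdp1 to -0.067. The quadriceps to brown fat ratio of Pdk4 was 2.67 without division by length and 5.02 with median scaling, under which Pdk1 turned to 1.28. The Pdk4 share of the kinases was 96.3% in quadriceps and 82.5% in brown fat without length, and 96.3% and 82.4% with coding length. The quadriceps phosphatase order turned over, to Pdp1 47.8% and Pdp2 52.2% without length, and to 47.5% and 52.5% with coding length. No paired analysis was possible because the tables hold no values per library, and leaving out replicates was not run for the same reason. Depth limits Pdk3 most, at mean counts of 11.6 in quadriceps and 26.9 in brown fat.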
